A study of Rattus norvegicus with 6 samples.

Results

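The transcripts described here belong to Sgk1 (ENSRNOT00000040736.3), Nedd4l (ENSRNOT00000083363.1) and Slc4a10 (ENSRNOT00000007218.7), 3 genes of sodium handling. They are 3 of the 31715 transcripts in the table of estimated counts, and 24253 of these had at least 1 count after rounding and could be tested. The 3 members were selected from the study's list of changed transcripts, which holds transcripts that differed at least 2-fold between the diets in an exact test on these same 6 libraries. The study's text calls the p of that list corrected, and the entries were matched here by the unadjusted p. Their levels in both groups are therefore a description, with no test. RNA was sequenced from basilar artery smooth muscle cells of male rats of the strain labelled Spraque-Dawley, which were 6 weeks old and weighed 180 to 200 g when obtained, before the diet. The control group (3 rats) ate normal chow, and the high-salt diet group (3 rats) ate that chow with a further 4% of NaCl by weight for 4 weeks, with a rise in systolic pressure above 30 mmHg as the study's criterion. Each library came from the artery of 1 rat, from which the endothelium was stripped mechanically with wires, and mRNA was selected by its poly A tail and read at a length of 150 bases. The cells were not sorted, so fewer cells of a type and less RNA per cell cannot be told apart in these bulk samples.

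In epithelia that take up sodium, the hormone aldosterone induces Sgk1, a kinase that phosphorylates Nedd4l. Nedd4l is a ubiquitin ligase that removes the epithelial sodium channel from the cell surface, and its phosphorylation by Sgk1 keeps the channel there. Slc4a10 belongs to a different branch of sodium handling, since it carries sodium and bicarbonate into the cell and is best known from neurons and the choroid plexus, where it takes part in the control of cell pH.

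Total counts were 12896098, 24718338 and 23198636 for control replicates 1, 2 and 3, against 16159272, 19522923 and 20589033 for high-salt replicates 1, 2 and 3. Levels are given in CPM, which are counts set to a common library size after scaling by the trimmed mean of M values (TMM). They are not scaled for transcript length, so levels of different genes are not compared. The floor of 3 counts per library lay at 0.254, 0.119 and 0.132 CPM in the control libraries and at 0.164, 0.158 and 0.146 CPM in the high-salt libraries. Floors and intervals cover counting error only. The replicate 1 libraries of both groups stood apart from the rest. Across transcripts, Pearson's r of log2(CPM + 1) was 0.951 between these 2 libraries, 0.827 to 0.904 between them and the other 4, and 0.90 to 0.953 among the other 4. High-salt replicate 2 stood apart as well, since its highest r with any library was 0.905, while each of the other 5 had a partner at 0.948 or more. It is the library in which the Nedd4l and Slc4a10 members were highest. Values without both replicate 1 libraries and without high-salt replicate 2 are given for the summed level of each member.

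An estimated count need not be whole, because a read that fits several transcripts is divided between them. Where the counts of neighbouring rows add up to a whole number in all 6 libraries, they were taken to hold the same reads and are called a read-sharing set here, and their total is called the read-sharing sum. The sharing is inferred from these sums and was not checked on reads or sequences. Such sets were found for all 3 members. The set of Sgk1 held 4 transcripts, that of Nedd4l 3 and that of Slc4a10 7, of which 6 had counts. The other transcripts of a set were not paired with a gene name and are given by identifier.

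The Sgk1 transcript was lower under the high-salt diet, while the reads of its set were not lower beyond their spread. In control replicates 1, 2 and 3 it had 45.4, 0 and 209 counts, which is 3.85, 0 and 9.20 CPM, and it had 0 counts in each high-salt library. Control replicate 3 was the high library, and control replicate 2 lay with the high-salt libraries at 0, so the groups overlapped. The control mean was 4.35 ± 4.62 CPM (SD, n = 3), and the mean under the high-salt diet was at least 27.8-fold lower, with the floor of 3 counts in each library. This bound leaves out the spread of the control libraries, of which replicate 2 was at 0. The difference of the mean log2(CPM + 1), high-salt minus control, was -1.88. It was -1.14 without control replicate 3 and -2.81 without control replicate 2.

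The read-sharing sum of Sgk1 came to 1733, 2075 and 1041 counts under the control diet, against 1550, 963 and 1995 under the high-salt diet. In CPM this was 147, 82.3 and 45.9 against 84.8, 50.7 and 97.3. The highest and the lowest level were both in the control group, so the high-salt libraries lay within its range. The means were 91.7 ± 51.1 and 77.6 ± 24.1 CPM (SD, n = 3 each). In the mean log2(CPM + 1) the difference was -0.13, smaller than the pooled SD of 0.68, and it turned to 0.28 without control replicate 1, to 0.14 without high-salt replicate 2 and to 0.19 without both replicate 1 libraries.

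The division of these reads among the 4 transcripts differed from library to library. The Sgk1 member held 2.62% of the sum in control replicate 1 (95% exact Clopper-Pearson interval 1.90% to 3.46%) and 20.1% in control replicate 3 (17.7% to 22.6%). It held 0 of 2075 counts in control replicate 2, which allows a share of up to 0.145% by the limit of 3 counts. The counts of 0 in high-salt replicates 1, 2 and 3 allow up to 0.194%, 0.312% and 0.150% by the same limit, which is not the upper end of an exact interval. Here and for the other members, limits and intervals treat the estimated counts as observed. They leave out the error of dividing shared reads among transcripts, so true shares may lie outside them. The intervals of the 2 control libraries with counts did not overlap, so the member's share varied within the control group by more than counting error.

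ENSRNOT00000016121.5 held the largest share of the Sgk1 set in all 6 libraries, with 87.2%, 68.3% and 42.1% in the control group and 82.3%, 57.6% and 78.0% under the high-salt diet. Its lowest share was in control replicate 3, the library in which the member was highest. On the log2(CPM + 1) scale, ENSRNOT00000061157.3 had the lowest pooled SD of the set, 0.32. Its level was 18.1 ± 4.71 CPM in the control group and 17.5 ± 3.72 CPM in the high-salt diet group (SD, n = 3 each). ENSRNOT00000083452.1 was at 1.01, 2.87 and 0 CPM in the control libraries and at 0.881, 0 and 4.37 CPM in the high-salt libraries, so that it too was at 0 in a library of either group.

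In RefSeq (rat assembly GRCr8), matched by symbol, Sgk1 has 3 start windows in the table used here, against 1 each for Nedd4l and Slc4a10. The table holds fewer windows than these genes have RefSeq transcripts. A window spans 250 bases before and 50 bases after a transcription start. Those of Sgk1 are shown because it is the member with several windows in the table. The Ensembl transcripts were not paired with these starts here, and GRCr8 is another build than the Rnor_6.0 of the study. All 3 lie on the minus strand and are written 5′ to 3′ along the gene, at chr1:24807182-24807481, chr1:24805521-24805820 and chr1:24804782-24805081 of GRCr8. Capitals mark TATAAA, the letters of a TATA box, which was searched on both strands.
Sgk1 window 1: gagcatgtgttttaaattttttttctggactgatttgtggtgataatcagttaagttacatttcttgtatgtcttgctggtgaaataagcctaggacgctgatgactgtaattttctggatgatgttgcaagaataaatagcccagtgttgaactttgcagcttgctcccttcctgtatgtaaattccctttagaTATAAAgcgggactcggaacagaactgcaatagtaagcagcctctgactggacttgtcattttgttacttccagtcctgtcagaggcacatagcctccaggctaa
Sgk1 window 2: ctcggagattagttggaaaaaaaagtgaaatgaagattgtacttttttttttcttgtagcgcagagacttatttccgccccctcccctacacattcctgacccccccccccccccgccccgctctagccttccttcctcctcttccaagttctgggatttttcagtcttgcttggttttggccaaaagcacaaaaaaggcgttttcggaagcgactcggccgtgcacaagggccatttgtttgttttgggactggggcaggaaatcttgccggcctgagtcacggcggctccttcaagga
Sgk1 window 3: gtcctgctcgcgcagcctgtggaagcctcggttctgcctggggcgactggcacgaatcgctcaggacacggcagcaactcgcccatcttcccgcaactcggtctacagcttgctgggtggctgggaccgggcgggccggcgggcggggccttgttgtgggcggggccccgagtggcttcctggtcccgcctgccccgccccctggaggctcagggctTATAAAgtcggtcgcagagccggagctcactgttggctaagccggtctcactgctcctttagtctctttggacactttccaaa
The TATAAA of window 1 begins 55 bases before the start and that of window 3 begins 33 bases before it, and these letters are not in window 2. The window of Slc4a10 holds TATAAA on the opposite strand, and that of Nedd4l holds it on neither strand. Of all 33469 windows of this length in the table, 4760 hold TATAAA on either strand, or 14.2%. A match is a description of the letters and not of a site in use.

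The Nedd4l transcript was higher under the high-salt diet, in 2 of its 3 libraries, and the mean level of the reads of its set differed between the diets by less than their spread. It had 12.1, 144 and 0 counts in high-salt replicates 1, 2 and 3, which is 0.663, 7.58 and 0 CPM, and 0 counts in each control library. High-salt replicate 2 was high, and high-salt replicate 3 lay with the control libraries at 0, so the groups overlapped. The mean under the high-salt diet was 2.75 ± 4.20 CPM (SD, n = 3), or at least 16.3-fold higher, with the floor of 3 counts in each control library. This bound leaves out the spread of the high-salt libraries, and the mean rests mostly on high-salt replicate 2. In the mean log2(CPM + 1) the difference was 1.28, and it was 0.37 without high-salt replicate 2 and 1.92 without high-salt replicate 3.

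The read-sharing sum of Nedd4l came to 85, 401 and 194 counts under the control diet, against 287, 157 and 177 under the high-salt diet. In CPM this was 7.20, 15.9 and 8.55 against 15.7, 8.27 and 8.63. Each group had 1 library near 16 CPM, namely control replicate 2 and high-salt replicate 1, and the other 4 libraries lay between 7.20 and 8.63 CPM, so the groups overlapped. The means were 10.6 ± 4.69 and 10.9 ± 4.19 CPM (SD, n = 3 each). In the mean log2(CPM + 1) the sums differed by 0.057, with a pooled SD of 0.51. It turned to -0.15 without control replicate 1, to -0.043 without control replicate 3, to -0.22 without high-salt replicate 1 and to -0.43 without both replicate 1 libraries, and it was 0.21 without high-salt replicate 2.

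High-salt replicate 2, in which the Nedd4l member was highest, was the library with the fewest counts of the other transcripts of its set. There the member held 91.7% of the sum (95% exact Clopper-Pearson interval 86.3% to 95.5%), against 4.22% (2.18% to 7.19%) in high-salt replicate 1. The 0 counts in high-salt replicate 3 allow a share of up to 1.69%, and those in control replicates 1, 2 and 3 allow up to 3.53%, 0.748% and 1.55%. The mean share under the high-salt diet was 32.0 ± 51.8% (SD, n = 3), and without high-salt replicate 2 it was 2.11%. The other 2 transcripts together were at 15.0, 0.686 and 8.63 CPM in the high-salt libraries.

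The leading transcript of the Nedd4l set changed between libraries of the same diet. Counts of ENSRNOT00000023890.7 were 38.8, 401 and 74.9 under the control diet, against 137, 2.52 and 124 under the high-salt diet. Counts of ENSRNOT00000088624.1 were 46.2, 0 and 119 under the control diet, against 138, 10.5 and 52.7 under the high-salt diet. The former led in 2 libraries, the latter in 3, and the member in 1. The lead in high-salt replicate 1 rested on 138 against 137 counts, a gap smaller than counting error. In control replicate 2 all 401 counts were assigned to ENSRNOT00000023890.7.

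**Figure D1:**
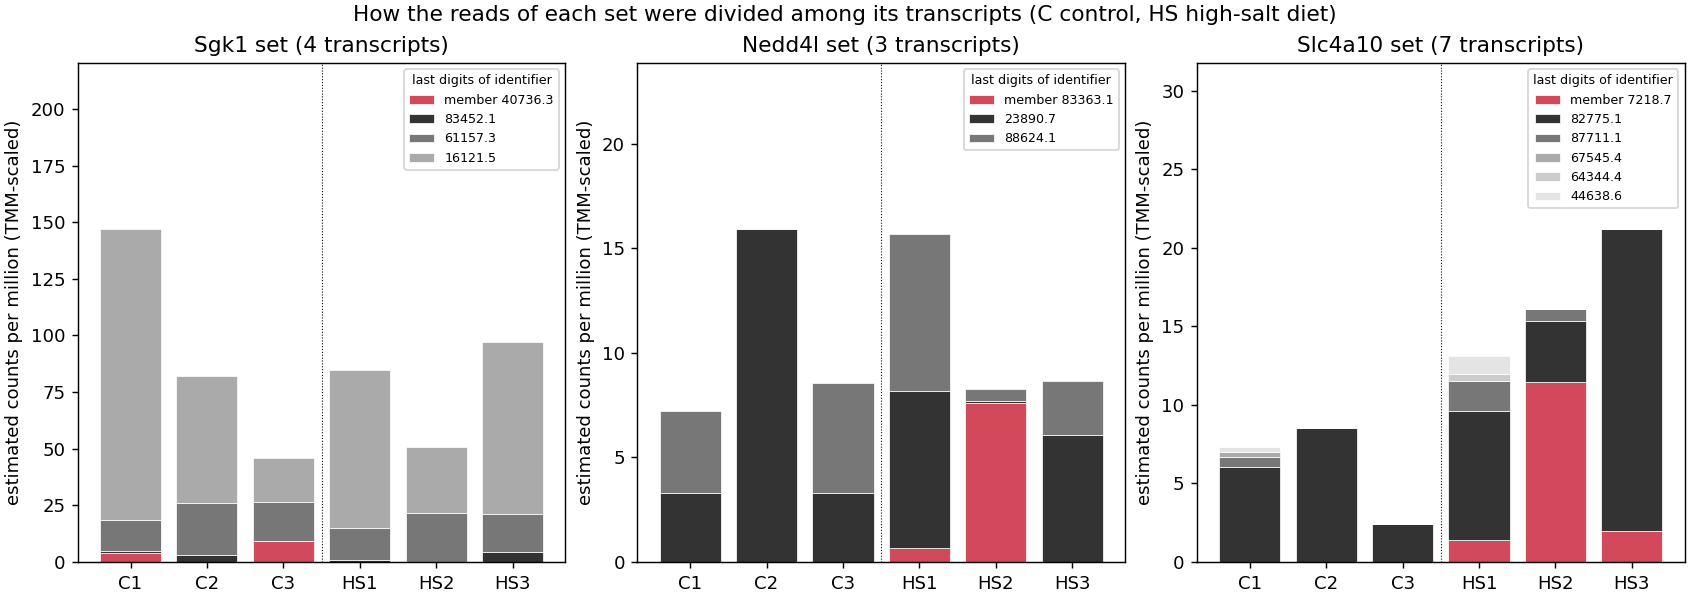
Stacked bars of the level in CPM (TMM-scaled) in each library (C control, HS high-salt diet) for the read-sharing sets of Sgk1, Nedd4l and Slc4a10, with the member in red and the other transcripts in grey, and transcripts at 0 in all libraries not drawn. The height of a bar is the read-sharing sum. The red part of HS2 fills 91.7% of the Nedd4l bar and 71.0% of the Slc4a10 bar, and the bars of Slc4a10 are taller in all 3 high-salt libraries.

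Slc4a10 was the member for which both the transcript and the reads of its set were higher in all 3 high-salt libraries than in any control library. The member had 0 counts in each control library and 25.5, 217 and 40.8 counts in high-salt replicates 1, 2 and 3, which is 1.40, 11.4 and 1.99 CPM. High-salt replicate 2 was again the high library, and the groups did not overlap. The mean under the high-salt diet was 4.94 ± 5.64 CPM (SD, n = 3), or at least 29.4-fold higher, with the floor of 3 counts in each control library. This bound leaves out the spread of the high-salt libraries. The difference of the mean log2(CPM + 1) was 2.16, and it was 1.42 without high-salt replicate 2.

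The read-sharing sum of Slc4a10 came to 86, 215 and 55 counts under the control diet, against 239, 306 and 434 under the high-salt diet. In CPM this was 7.29, 8.53 and 2.42 against 13.1, 16.1 and 21.2. The lowest high-salt library, replicate 1, lay above the highest control library, replicate 2. The means were 6.08 ± 3.23 and 16.8 ± 4.08 CPM (SD, n = 3 each), a ratio of 2.76. The difference of the mean log2(CPM + 1) was 1.44, larger than the pooled SD of 0.61. With any 1 library left out it lay between 0.98 (without control replicate 3) and 1.71 (without control replicate 2), and it was 1.45 without high-salt replicate 2 and 1.77 without both replicate 1 libraries. The sum holds the member, which was selected on this contrast, so its difference has no test.

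The member's part in the summed level of Slc4a10 differed between the high-salt libraries. It held 10.7% of the sum in high-salt replicate 1 (95% exact Clopper-Pearson interval 6.88% to 15.1%), 71.0% in replicate 2 (65.5% to 75.9%) and 9.40% in replicate 3 (6.86% to 12.6%). The 0 counts in control replicates 1, 2 and 3 allow a share of up to 3.49%, 1.40% and 5.45%. The mean share was 30.4 ± 35.2% (SD, n = 3) under the high-salt diet, and 10.03% without high-salt replicate 2.

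Without the member, the other transcripts of the Slc4a10 set were at 7.29, 8.53 and 2.42 CPM in the control libraries and at 11.7, 4.67 and 19.2 CPM in the high-salt libraries. High-salt replicates 1 and 3 lay above the control group and high-salt replicate 2 within its range, so the groups overlapped, with a difference of 0.81 in the mean log2(CPM + 1) against a pooled SD of 0.87. ENSRNOT00000082775.1 led the set in 5 libraries, with 6.04, 8.53 and 2.42 CPM in the control group and 8.19, 3.91 and 19.2 CPM under the high-salt diet, and the member led in high-salt replicate 2. Counts of ENSRNOT00000087711.1 were 7.76, 0 and 0 under the control diet, against 35.2, 14.3 and 0 under the high-salt diet. ENSRNOT00000067545.4, ENSRNOT00000064344.4 and ENSRNOT00000044638.6 had counts in the replicate 1 libraries alone, none above 21.0.

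**Figure D2:**
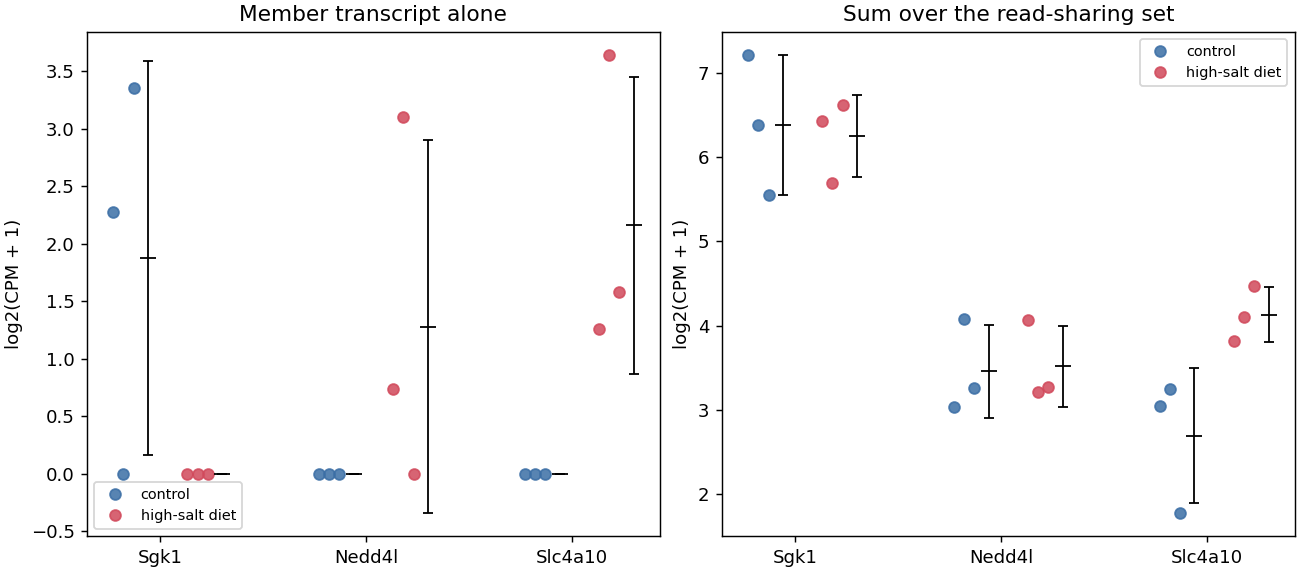
Level on the log2(CPM + 1) scale of each member transcript alone (left) and of its read-sharing sum (right), 1 point per library, with the mean and SD of 3 libraries beside the points. The sums of Sgk1 and Nedd4l overlap between the diets and that of Slc4a10 does not, with differences of -0.13, 0.057 and 1.44.

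In the same-numbered pairs of libraries, the read-sharing sum was higher in the high-salt library in 1 of 3 pairs for Sgk1, in 2 of 3 for Nedd4l and in 3 of 3 for Slc4a10. The ratios of high-salt to control were 0.578, 0.616 and 2.12 for Sgk1 in pairs 1, 2 and 3. They were 2.18, 0.520 and 1.01 for Nedd4l. For Slc4a10 they were 1.80, 1.89 and 8.73, with the largest ratio in the pair that held the lowest control library. Sgk1 and Nedd4l thus had no common direction across the same-numbered libraries. The labels do not state that these libraries were paired, so the ratios are a description.

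In the exact test of edgeR across all 24253 transcripts, a call was an unadjusted p under 0.05 with a change of at least 2-fold. All 3 members were called, 2 higher and 1 lower, as fits their selection on this contrast, beside 0.577% of all transcripts called higher and 0.647% called lower. Nothing is read from these counts. The fitted log2 fold changes were -9.41 for Sgk1, 8.75 for Nedd4l and 9.60 for Slc4a10, but with 1 group at 0 they are set in part by a prior count that edgeR adds. Fitted on the read-sharing sums they were -0.23, 0.034 and 1.47. Over all transcripts, the exact test called 140 higher and 157 lower. After its expression filter, which kept 17915 transcripts, the quasi-likelihood test of edgeR called 53 higher and 65 lower without the replicate block and 83 higher and 82 lower with it. Of the 3 members, Slc4a10 alone passed that filter, so Sgk1 and Nedd4l were not fitted with the block. The groups did not overlap, with the high-salt diet group higher, for 1 of the 3 member transcripts, that of Slc4a10, beside 2.12% of all transcripts, and for 1 of the 3 read-sharing sums, also that of Slc4a10, beside 2.88% of the 2989 read-sharing sums tested.

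The members were set beside the other transcripts that were at 0 in every library of 1 diet. Among 21808 transcripts whose counts summed to at least 10, 462 had 0 counts after rounding in all 3 control libraries, as did Nedd4l and Slc4a10, and 584 in all 3 high-salt libraries, as did Sgk1. Read-sharing sets were found for 195 and 239 of them. In the first group, the sum was above 0 in all 6 libraries for 179 of the 195, and it differed between the diets by less than 1 on the log2(CPM + 1) scale for 191 of them all. Slc4a10 was among the other 4 and Nedd4l among the 191. In the second group, which holds Sgk1, the sum was above 0 in all 6 libraries for 198 of the 239, and it differed by less than 1 for 236. Of all 2989 read-sharing sums, 17 were higher and 28 lower by at least 1, so nearly all differed by less. Nothing about transcripts at 0 in a diet is read from these counts.

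The median difference of the sums was 0.072 for the first group and -0.043 for the second, where the transcripts themselves had median differences of 0.67 and -0.45, whose signs follow from their choice by a diet at 0. The sums of Nedd4l (0.057) and Sgk1 (-0.13) lay between the quartiles of their groups, which were -0.16 and 0.29 for the first and -0.31 and 0.18 for the second. The sum of Slc4a10 lay above the upper quartile of its group. The members were selected on this contrast, so these places are a description. Among all 2989 read-sharing sums, 17 were higher and 28 lower by at least 1 in the high-salt diet group. Of the 17, 3 were higher by 1.44 or more, with Slc4a10 as 1 of them.

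**Figure D3:**
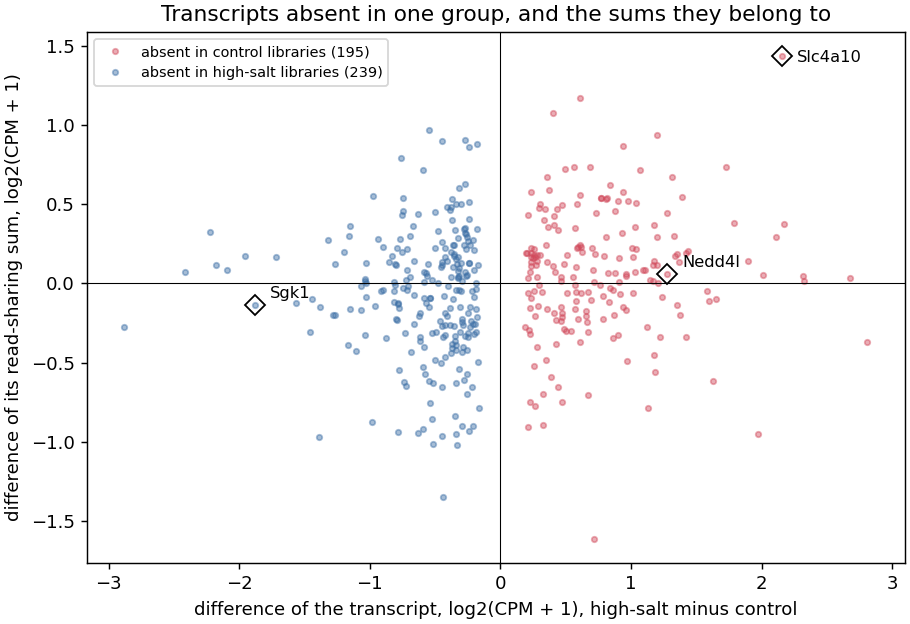
Difference of the mean log2(CPM + 1), high-salt minus control, of the 195 transcripts at 0 in the control libraries (red) and the 239 at 0 in the high-salt libraries (blue) on the horizontal axis, and of their read-sharing sums on the vertical axis. Diamonds mark the 3 members. Sgk1 and Nedd4l lie near the horizontal line at 0, with sums of -0.13 and 0.057, and Slc4a10 lies at the upper right, with 1.44.

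A list of 85 genes of sodium handling held the members, other regulators of sodium channels, the WNK kinases, sodium channels, the sodium pump, bicarbonate transporters, exchangers and cation-chloride cotransporters. Gene names were paired with transcripts here only through the study's list, which was chosen on these libraries, so 7 list genes were named with 1 transcript each and their directions are not independent evidence. Of the 4 besides the members, 1 was called higher and 2 lower in the exact test of edgeR. Over all transcripts, 0.577% were called higher and 0.647% lower. The study's list was itself chosen by such calls, so nothing is read from the number called among the 4. The log2 fold changes of the 4 were -6.47 (Scn2a), -3.91 (Wnk1), 1.70 (Slc4a4) and 4.09 (Slc12a7). Their median was -1.11, and -0.072 with the transcript at 0 in the high-salt diet group set to its bound. The median of all transcripts tested was -0.081. The median of the 4 falls between opposite changes and describes none of them, so nothing is read from it. In the quasi-likelihood test of edgeR, Scn2a did not pass the expression filter, and 1 of them, Wnk1, was called lower without the replicate block and 0 with it.

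Slc4a4, the electrogenic sodium bicarbonate cotransporter, is of the same family as Slc4a10 and was also higher. Its transcript ENSRNOT00000004391.3 was at 7.93, 14.6 and 12.2 CPM in the control libraries and at 10.7, 62.5 and 39.8 CPM in the high-salt libraries. High-salt replicate 1 lay within the control range, so the groups overlapped. The log2 fold change was 1.70, with an unadjusted p of 0.0190 and an adjusted p of 1 in the exact test of edgeR, higher in 3 of 3 same-numbered pairs. This call was lost without control replicate 1, without high-salt replicate 2 and without high-salt replicate 3, each of which left 0 list transcripts called higher. Without both replicate 1 libraries, an alternative chosen after seeing the data, the log2 fold change was 1.93. The adjusted p was then 0.0273 in the exact test of edgeR on 2 libraries a group. That was the lowest over all settings run, where the adjusted p lay between 0.0273 and 1. Slc4a4 was named through the study's list, which was chosen on these libraries, so its p is a description. Its read-sharing set was not resolved.

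Slc12a7, a potassium chloride cotransporter, was not called in the exact test of edgeR with rounding, but it was called higher with DESeq2 and in an exact test that changed 3 choices at once (unrounded counts, all rows, and common then tagwise dispersion). Its transcript ENSRNOT00000078039.1 was at 0, 0 and 1.23 CPM in the control libraries and at 0.964, 18.7 and 1.83 CPM in the high-salt libraries, with an unadjusted p of 0.0728 and an adjusted p of 1 in the exact test of edgeR. As for Nedd4l and Slc4a10, high-salt replicate 2 was the high library. The sum of its 3 read-sharing transcripts was 28.1, 93.0 and 87.4 CPM against 76.7, 113 and 118 CPM, with overlap and a difference of 0.71 in the mean log2(CPM + 1). In every same-numbered pair, both the transcript and this sum were higher in the high-salt library.

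The called transcripts that were lower belonged to Wnk1, a kinase upstream of the cation-chloride cotransporters, and Scn2a, a voltage-gated sodium channel of neurons. Wnk1 (ENSRNOT00000013355.6) was at 0.731, 14.0 and 6.40 CPM in the control libraries and at 0.704, 0 and 0.695 CPM in the high-salt libraries, with an unadjusted p of 0.0248 and an adjusted p of 1 in the exact test of edgeR. Control replicate 1 lay above high-salt replicates 1 and 3 by less than counting error, with 8.63 counts against 12.9 and 14.3 in these larger libraries. In the quasi-likelihood test of edgeR, its log2 fold change was -3.92 with an unadjusted p of 0.0417 without the replicate block, and -3.53 with an unadjusted p of 0.164 with it, so this call was lost with the block. Scn2a (ENSRNOT00000007069.5) was at 0.258, 0.804 and 0.617 CPM in the control libraries and at 0 in the high-salt libraries, at least 3.58-fold lower, with an unadjusted p of 0.0154 and an adjusted p of 1 in the exact test of edgeR. The read-sharing sets of both were not resolved. No list transcript was called lower without control replicate 2, without control replicate 3, without high-salt replicate 1 or without high-salt replicate 3, a count of 0 in each of these exact tests of edgeR.

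Slc4a10 is best known from neurons and the choroid plexus, so markers of neural cells were looked up beside it. Of 37 cell type markers, 3 were named through the study's list, namely Aqp4 of astrocytes, Slc17a7 of glutamatergic neurons and Gad1 of GABAergic neurons. Their summed level was 1.11, 2.22 and 10.7 CPM in the control libraries and 0 after rounding in each high-salt library. In control replicates 1, 2 and 3 the level was 0.01, 0 and 8.91 CPM for Aqp4, 0.424, 2.22 and 0 CPM for Slc17a7 and 0.678, 0 and 1.76 CPM for Gad1. Aqp4 and Gad1 were highest in control replicate 3, as the Sgk1 member was, and Slc17a7 in control replicate 2, where that member was at 0. Their part in the level of Sgk1 was not tested. The read-sharing set of Aqp4 was not resolved. None of the 3 marker transcripts was called in the exact test of edgeR. The unadjusted p of that test was 0.0569 for Aqp4, 0.0738 for Slc17a7 and 0.0721 for Gad1. These 3 transcripts were named here because the study's list holds them as lower under the high-salt diet, so their direction follows from that choice and says nothing about Slc4a10. The other 34 markers, those of smooth muscle, endothelium and choroid plexus included, were not analysed here, so the labelled cell type was not checked.

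**Figure D4:**
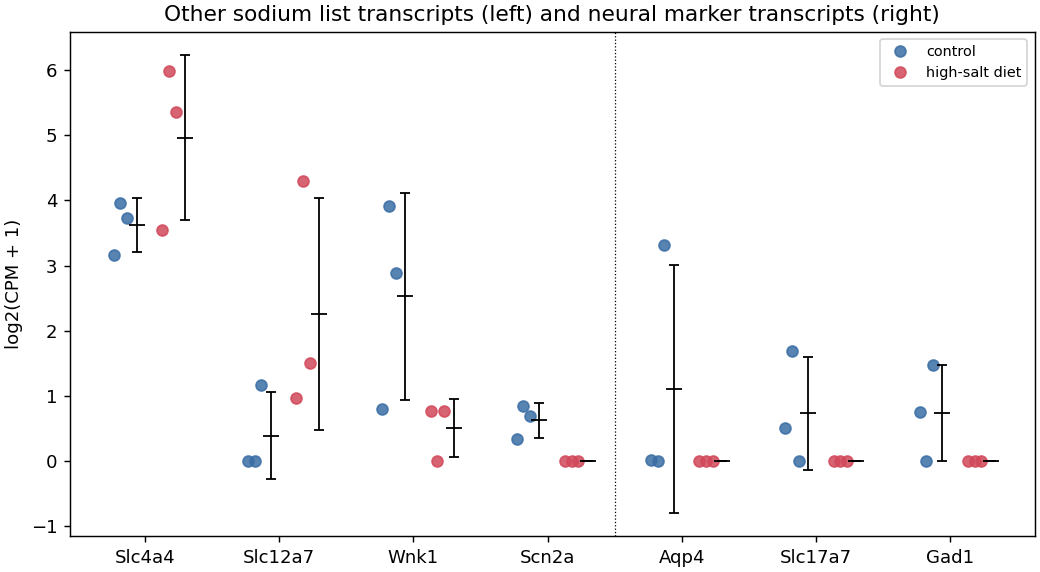
Level on the log2(CPM + 1) scale of the 4 sodium list transcripts besides the members and of the 3 neural marker transcripts, 1 point per library, with the mean and SD of 3 libraries beside the points. Slc4a4 reaches 62.5 CPM in high-salt replicate 2, and the 3 marker transcripts are at 0 after rounding in the high-salt libraries.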

How the data were processed

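RNA of 3 rats on control chow was compared with that of 3 on the high-salt diet, with groups and replicate numbers from the labels. The authors trimmed reads with Trimmomatic, checked them with FastQC, mapped them to Rnor_6.0 with HISAT2 (version 2.0.13) and deposited the estimated count of each transcript from kallisto, whose version is not given in the sources used here. Counts were rounded for testing and analysed in R 4.3.3 with edgeR 4.0.16 (TMM, exact test, Benjamini-Hochberg adjustment over 24253 transcripts) and DESeq2 1.42.0 as an alternative, and with numpy 2.4.6, pandas 2.3.3, scipy 1.17.1 and matplotlib 3.10.9. Read-sharing sets were the shortest runs of at most 30 adjacent rows, taken in table order, whose counts summed to within 0.01 of a whole number, plus the rounding of the deposited digits, in all 6 libraries. This resolved 2991 sets with 7326 rows, and 6516 rows with non-whole counts were not resolved. The search for sets, the exact test, the quasi-likelihood test without the block and DESeq2 were tested on simulated data. The other steps were not.

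Named genes were the members, the transcripts of their sets, the named transcripts nearest in pattern, and those of a sodium list and a marker list. Names came from the study's list, whose 368 entries were each matched to a transcript by recomputing its fold change and p, and no value was taken from it. The members and lists were chosen with earlier results of these data known. The labels share replicate numbers between the diets but state no pairing. Deviations of same-numbered libraries from their group means had correlations across transcripts of 0.596, 0.230 and 0.296 in pairs 1, 2 and 3. Control replicate 2 with high-salt replicate 3 gave 0.264, and control replicate 3 with high-salt replicate 2 gave 0.17. The data thus did not set pairs 2 and 3 apart, and deviations within a group sum to 0, so these values are not independent of pair 1. The numbers were used for the replicate block and the pairs as an assumption. Alternatives were other filters, scalings, tests, tolerances and pseudocounts, the replicate block, and leaving out libraries.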

Additional observations from a re-analysis of the deposited data

How the results depend on the processing

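The sums of Sgk1 and Nedd4l changed sign when some libraries were left out, and that of Slc4a10 did not. With 1 library left out the ranges were -0.55 to 0.28 for Sgk1, -0.22 to 0.37 for Nedd4l and 0.98 to 1.71 for Slc4a10, and without both replicate 1 libraries the values were 0.19, -0.43 and 1.77. With CPM from unscaled totals the differences of the sums were -0.048 for Sgk1, 0.14 for Nedd4l and 1.51 for Slc4a10. The difference of the member transcripts depended on the pseudocount, as the scale is built. With 0.1 in place of 1 it was -3.95 for Sgk1, 3.07 for Nedd4l and 5.05 for Slc4a10, and with 5 it was -0.78, 0.50 and 0.85. The member's share of the sum moved most with 1 library, from -7.56 to -1.31 percentage points for Sgk1 without control replicate 3, and from 32.0 to 2.11 for Nedd4l and from 30.4 to 10.03 for Slc4a10 without high-salt replicate 2.

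Over all transcripts, 140 higher and 157 lower calls became 62 and 71 with the expression filter of edgeR, 53 and 65 with the quasi-likelihood test and 83 and 82 with the replicate block, and DESeq2 gave 96 and 92. An exact test with unrounded counts, all rows and common then tagwise dispersion, 3 choices changed together, gave 203 and 165. These equal the counts that the study reports, and were reached here at an unadjusted p. The filtered fits tested fewer transcripts (17915). Leaving out 1 library gave 83 to 241 higher and 110 to 281 lower, with the extremes of the former without control replicate 2 and high-salt replicate 1. With each read-sharing set replaced by its sum and all other transcripts kept as single rows (20206 tested), 109 higher and 132 lower calls became 45 and 52 with the quasi-likelihood test and 80 and 85 with the replicate block, and leaving out 1 library gave 78 to 217 and 99 to 241. Leaving out both replicate 1 libraries, an alternative chosen after seeing the data, gave 228 higher and 164 lower for transcripts, and 187 and 123 with the sums in place. Of the 4 sodium list transcripts besides the members, 2 (Slc4a4 and Slc12a7) were called higher with DESeq2 and in the test with 3 choices changed. The number called lower was 1 with the expression filter, with the quasi-likelihood test, with DESeq2 and without both replicate 1 libraries, and 0 with the replicate block. Leaving out 1 library gave 0 to 1 higher and 0 to 2 lower. The cause was not tested. Sgk1, Nedd4l and Scn2a did not pass the expression filter and have no value with the block, and Slc4a4 was called higher with and without it. An adjusted p under 0.05 was reached by 1 transcript in the exact test of edgeR, 0 in its quasi-likelihood test with or without the block, and 6 in DESeq2, against 301 at an unadjusted p under 0.05 in the exact test. Where a member was present it had 12.1 to 217 counts, which limits the precision of its share in a library, and for each member some libraries of 1 diet differed in share by more than these intervals.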

Other observations

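For each member, the 3 named transcripts outside its set with the most similar pattern were taken by Pearson's r of log2(CPM + 1) over the 6 libraries, among 367 candidates from the study's list, which was chosen on these libraries. The points share their libraries and many values of 0, so r is a description. For Sgk1 these were Pold2 (r = 0.999), Parn (0.999) and Msh5 (0.998), each at 0 in control replicate 2 and in all high-salt libraries. Parn was at 1.74, 0 and 2.87 CPM in the control libraries. For Nedd4l they were Sptssb (r = 0.9995), Fyn (0.998) and an entry printed under a date in place of its name (0.997). Sptssb was at 0.693, 6.16 and 0 CPM in the high-salt libraries and at 0 in the control libraries, the order in which Nedd4l stood. For Slc4a10 they were AABR07048303.1 (r = 0.9999), Impad1 (0.989) and Zfp189 (0.989). Zfp189 was at 0.730, 14.7 and 1.97 CPM in the high-salt libraries and at 0 in the control libraries.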
